A study of Mus musculus with 46 samples.

Results

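Cell cycle and DNA replication genes were followed across mouse pancreatic islets and livers labelled as controls or as knockouts of genes that act on mitochondria. The set held 49 named genes of the 55487 genes counted. It was divided by function into 24 G1/S and replication genes (entry into S phase, origin licensing, nucleotide supply and DNA synthesis) and 25 mitotic genes (G2, chromosome segregation and cytokinesis). Members were found by gene symbol, without use of their values, and each symbol matched 1 gene.

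RNA was sequenced from 46 libraries in 3 experiments, and the titles call the libraries of a group biological replicates. The Tfam islet experiment held 5 female and 3 male libraries of genotype Tfam control, and 4 female and 2 male libraries of genotype Tfam KO. The Clec16a islet experiment held Clec control libraries on the diets labelled RFD (4) and HFD (6) and Clec KO libraries on RFD (4) and HFD (5). The liver experiment, whose sample descriptions carry the prefix AAVliver, held 6 control, 4 Mfn DKO and 3 Tfam KO libraries. Every islet group shared overnight culture after isolation, and every liver was flash frozen. The transgene, promoter or virus used for each deletion, the strain, the ages and what the controls received are not given in the sources used here. Sex was labelled only in the Tfam islets, and whether each library came from 1 animal is not stated, so p-values measure the spread between these samples.

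Cell cycle entry is driven by D-type cyclins, which with their kinases inactivate the retinoblastoma family and release E2F factors to transcribe S phase genes. The MCM helicase is loaded at origins by Cdc6 and Cdt1, and later in the cycle the MuvB complex, with B-Myb and Foxm1, acts on genes of G2 and mitosis through the CHR element, often near CCAAT boxes bound by NF-Y. Adult hepatocytes and beta cells are mostly quiescent. Cyclin D2 is the D-type cyclin best known for its role in beta cell expansion, whereas hepatocytes can re-enter the cycle after injury.

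Library totals lay between 55223041 and 83342809 counts in the Tfam islets, 16235173 and 55810879 in the Clec16a islets, and 41961114 and 56894510 in the livers. The targeted transcripts checked the labels in 2 of the experiments. Tfam, the mitochondrial DNA packaging and transcription factor, lay between 37.8 and 44.7 CPM (counts scaled to library totals adjusted by TMM factors, edgeR's correction for composition) in control islets and between 16.02 and 18.95 CPM in Tfam KO islets, and fell from 54.2–66.2 to 13.1–15.9 CPM in Tfam KO livers. Mfn1 and Mfn2, the mitochondrial outer membrane fusion GTPases, fell from 67.8–88.3 to 15.7–25.4 CPM and from 113–191 to 32.3–45.1 CPM in Mfn DKO livers. Clec16a, a regulator of mitophagy, was not lower in the islets labelled Clec16a KO, with log2 fold changes of 0.13 on RFD (edgeR adjusted p = 0.612) and 0.08 on HFD (edgeR adjusted p = 0.740), so the transcript did not check those labels. Livers fell into 7 with Xist, the RNA made from the inactive X chromosome, between 380 and 788 CPM and 6 with Xist between 0.0847 and 0.705 CPM. These were 3 and 3 of the controls, 2 and 2 of the Mfn DKO and 2 and 1 of the Tfam KO livers. Ddx3y, a gene of the Y chromosome, lay at 0–0.605 CPM in the high-Xist and 88.3–104.7 CPM in the low-Xist livers. That is the pattern of females and males. Every Clec16a islet library had the female pattern, with Xist at 302–534 CPM and Ddx3y at 0 CPM.

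Levels in the control groups were compared between genes in TPM, a transcript share that takes transcript length into account. Cyclin D2 (Ccnd2) was the most abundant member in islets, at 331 ± 76.0 TPM (SD, n = 8) in the Tfam controls and 132 ± 5.55 TPM (SD, n = 4) in the Clec16a controls on RFD. Cyclin D1 (Ccnd1) came next, at 80.9 ± 19.3 and 67.6 ± 8.34 TPM, followed by Pcna, the sliding clamp of the replication fork, at 32.2 ± 5.15 and 15.8 ± 0.805 TPM. In control livers the order began with Pcna at 28.6 ± 3.08 TPM, thymidine kinase (Tk1) at 25.8 ± 5.25 TPM and Ccnd1 at 21.5 ± 18.7 TPM (SD, n = 6), and the spreads of these 3 overlapped. The proliferation antigen Mki67 stood far lower, at 1.504 ± 0.508 TPM in the Tfam control islets, 0.676 ± 0.228 TPM in the Clec16a controls on RFD and 0.549 ± 0.126 TPM in control livers.

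Every member passed the filter on low counts in all 3 experiments, and each was tested with edgeR against all genes. In the livers, 18 of 25 mitotic and 23 of 24 G1/S and replication members also had at least 10 counts in every library. The lowest were Cdc25c, a phosphatase that activates Cdk1, with 0 to 4 counts in controls, and the checkpoint kinase Bub1, with 0 to 20. Exons of Ccnd1, Ccnd2, Ccne2, E2f8, Mcm7, Pole, Tk1, Ccna2, Cdc20, Cdc25c, Plk1, Kif20a, Nusap1, Prc1 and Ube2c overlap those of a gene on the opposite strand. Those of Foxm1, Top2a and Mcm7 overlap a gene on the same strand. Counting by strand is not stated, so the values of these members may hold reads of the other gene.

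**Figure D1:**
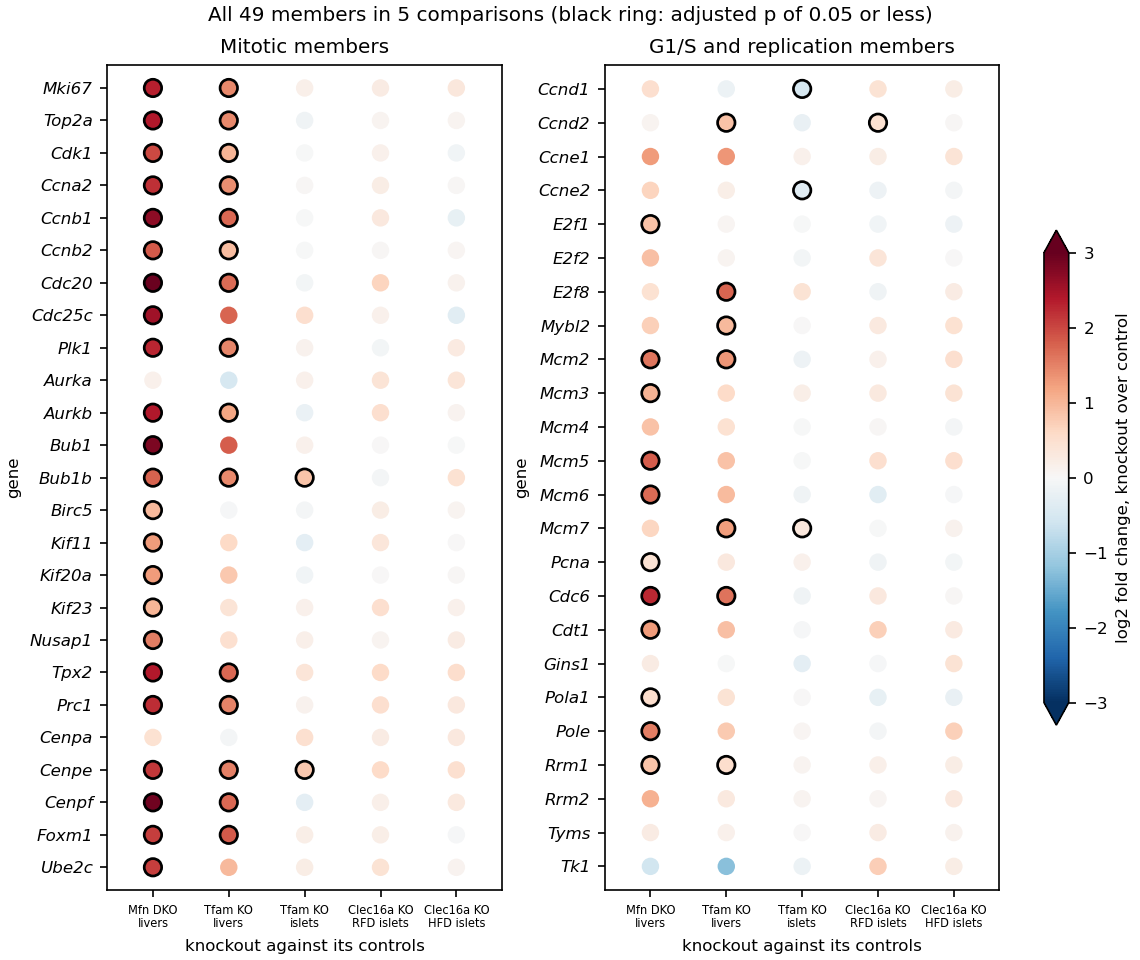
Log2 fold change (colour, limited to the range from -3 to 3) of all 49 members in 5 comparisons of a knockout with its controls; rows are genes, columns are comparisons, and a black ring marks an edgeR adjusted p of 0.05 or less. Mfn DKO livers carry 23 ringed mitotic members of 25 and Tfam KO livers 15, whereas the islet columns carry few rings.

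The first comparison asked how these genes stood in Mfn DKO livers relative to control livers. Mitotic transcripts rose nearly as a block: 23 of 25 were higher at an edgeR adjusted p of 0.05 or less, none was lower, and the median log2 fold change was 2.11. The background was 5.23% of all 17024 genes called higher, with a median log2 fold change of 0.02 over all genes tested. Of the G1/S and replication members, 11 of 24 were higher and none was lower, with a median of 0.87. Each of the 4 Mfn DKO libraries lay above each of the 6 control libraries for 21 mitotic and 14 G1/S and replication members, against 8.95% of all genes. TMM factors were 0.862–0.929 in controls and 0.995–1.04 in Mfn DKO livers, so scaling to library totals alone, an alternative chosen after seeing the data, raised the median of all genes from 0.02 to 0.21. Genes called higher then went from 891 of 1681 calls to 1653 of 2009, mitotic members called from 23 to 24 and G1/S and replication members from 11 to 15.

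Regulatory sequences of the leading members are shown here because the members of a class moved together in these livers. They are RefSeq promoters on GRCm38.p6, of which an entry existed for 19 mitotic and 18 G1/S and replication members. No entry was used for Ccna2, Cdc25c, Aurkb, Kif20a, Tpx2, Foxm1, Ccnd1, Ccnd2, Ccne2, Mcm4, Gins1 and Pole. 3 kinds of motif were searched on both strands: the CHR element, the CCAAT box and the E2F site. The CHR element was taken as TTTGAA, its variant with TTTAAA, its variant with TTCGAA or its variant with CTTGAA. The CCAAT box was taken as its name spells it, and the E2F site as TTTCCCGC, TTTCGCGC, TTTGCCGC or TTTGGCGC. Capitals mark these matches on either strand, so that ATTGG is a CCAAT box and TTCAAA a CHR element on the other strand. The 250 bases before the start of transcription of the 3 mitotic members with the smallest adjusted p are given 5′ to 3′, for Mki67 at chr7:135716380-135716629 (minus strand), for Cenpf at chr1:189688087-189688336 (minus strand) and for the first of the 2 entries of Prc1 at chr7:80294201-80294450 (plus strand).
Mki67: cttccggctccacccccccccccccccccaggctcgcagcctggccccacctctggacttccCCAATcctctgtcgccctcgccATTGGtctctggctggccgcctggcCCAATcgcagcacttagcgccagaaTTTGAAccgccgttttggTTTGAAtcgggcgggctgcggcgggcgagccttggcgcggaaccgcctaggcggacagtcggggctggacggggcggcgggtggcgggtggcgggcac
Cenpf: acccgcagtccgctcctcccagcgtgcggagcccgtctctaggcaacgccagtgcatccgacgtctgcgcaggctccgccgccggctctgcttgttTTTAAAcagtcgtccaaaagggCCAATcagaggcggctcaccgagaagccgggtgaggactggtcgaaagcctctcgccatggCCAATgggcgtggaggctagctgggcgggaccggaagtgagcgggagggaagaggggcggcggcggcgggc
Prc1: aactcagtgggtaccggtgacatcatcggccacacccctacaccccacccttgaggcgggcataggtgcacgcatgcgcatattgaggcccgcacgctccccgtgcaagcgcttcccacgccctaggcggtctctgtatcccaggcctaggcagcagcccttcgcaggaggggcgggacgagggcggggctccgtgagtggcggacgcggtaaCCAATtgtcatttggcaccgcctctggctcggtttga
Mki67 held 2 CHR elements and 3 CCAAT boxes, Cenpf held 1 and 2, and the first entry of Prc1 held 1 CCAAT box. The second entry of Prc1, which starts further downstream, brought 1 CHR element into the window. No matches of different motifs shared bases in the printed windows.

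The G1/S and replication members shown are Rrm1 at chr7:102441445-102441694 (plus strand), Mcm2 at chr6:88898781-88899030 (minus strand) and Mcm3 at chr1:20820313-20820562 (minus strand), which have the smallest adjusted p among those with an entry. Mcm6 at chr1:128359706-128359955 (minus strand) was added after its matches were seen, as a window with E2F sites.
Rrm1: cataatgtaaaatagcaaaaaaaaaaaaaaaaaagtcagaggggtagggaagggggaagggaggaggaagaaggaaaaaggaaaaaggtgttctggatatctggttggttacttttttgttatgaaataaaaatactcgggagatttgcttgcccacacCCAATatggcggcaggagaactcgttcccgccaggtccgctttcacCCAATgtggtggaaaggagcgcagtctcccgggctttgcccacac
Mcm2: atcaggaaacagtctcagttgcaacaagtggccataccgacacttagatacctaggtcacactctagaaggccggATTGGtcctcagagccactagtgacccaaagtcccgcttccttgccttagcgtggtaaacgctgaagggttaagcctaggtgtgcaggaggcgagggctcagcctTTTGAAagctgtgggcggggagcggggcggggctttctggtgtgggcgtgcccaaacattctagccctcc
Mcm3: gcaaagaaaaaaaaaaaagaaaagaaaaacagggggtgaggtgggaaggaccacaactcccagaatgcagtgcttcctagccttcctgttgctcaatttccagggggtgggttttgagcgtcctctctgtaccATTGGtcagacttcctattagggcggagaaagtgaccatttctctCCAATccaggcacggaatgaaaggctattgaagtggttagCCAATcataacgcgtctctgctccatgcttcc
Mcm6: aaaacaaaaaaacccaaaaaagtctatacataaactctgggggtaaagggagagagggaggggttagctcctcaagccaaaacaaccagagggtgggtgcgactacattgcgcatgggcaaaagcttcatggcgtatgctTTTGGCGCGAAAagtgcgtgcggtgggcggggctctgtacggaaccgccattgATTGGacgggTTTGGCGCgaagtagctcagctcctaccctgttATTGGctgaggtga
Rrm1 held 2 CCAAT boxes, Mcm2 held 1 CHR element and 1 CCAAT box, and Mcm3 held 3 CCAAT boxes. Mcm6 held 3 E2F matches, 2 of which overlap each other on opposite strands, and 2 CCAAT boxes.

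Motif shares differed between the classes when the window was widened to 300 bases by the 50 bases after the start. A CHR element lay in the promoters of 18 of 19 mitotic genes (94.7%) and 8 of 18 G1/S and replication genes (44.4%), against 40.8% of 27025 genes with a promoter. A CCAAT box was present for 17 mitotic genes (89.5%) and 11 G1/S and replication genes (61.1%), against 41.1% of all genes. The E2F letters occurred in 8 G1/S and replication genes (44.4%) and in Cdk1 alone among the mitotic genes (5.26%), against 2.6% of all genes. In the 250 bases before the start alone, the CHR share was 78.9% for mitotic genes and the E2F share was 27.8% for G1/S and replication genes. These matches describe the windows and were not tested against the expression values.

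Among the mitotic members, the proliferation antigen Mki67 measured 2.12, 2.80, 3.06, 2.57, 3.05 and 1.81 CPM in control livers 1 to 6 and 12.1, 8.43, 8.13 and 22.7 CPM in Mfn DKO livers 1 to 4. All Mfn DKO livers were above all controls, and Mfn DKO liver 4 was highest. The log2 fold change was 2.32 ± 0.27 (SE, edgeR adjusted p = 0.000448). Cenpf, a kinetochore protein of G2 and mitosis, had the next smallest adjusted p, with 0.227 to 0.634 CPM (median 0.404) in controls and 2.52, 2.13, 2.04 and 5.15 CPM in Mfn DKO livers. Its groups did not overlap either, and the log2 fold change was 2.91 ± 0.35 (SE, edgeR adjusted p = 0.00052).

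Prc1, which bundles the microtubules of the central spindle, lay between 0.397 and 0.862 CPM in controls (median 0.769) and measured 2.65, 1.97, 2.70 and 5.41 CPM in Mfn DKO livers. Every Mfn DKO value was more than the highest control (log2 fold change 2.21 ± 0.30, SE, edgeR adjusted p = 0.00126). Top2a, the topoisomerase that decatenates sister chromatids, ranged from 0.944 to 3.53 CPM in controls (median 2.10) and measured 9.68, 8.14, 8.51 and 19.1 CPM in Mfn DKO livers (2.40 ± 0.34, edgeR adjusted p = 0.00152). Cdc20, the activator of the anaphase-promoting complex, went from 0.228–0.991 CPM (median 0.538) to 2.90, 3.07, 3.29 and 9.96 CPM (2.97 ± 0.44, edgeR adjusted p = 0.00189). For Top2a and Cdc20 too, the Mfn DKO libraries lay above all controls, with liver 4 highest. Cyclin B2 (Ccnb2) went from 0.639–1.09 CPM (median 0.770) to 2.16, 2.73, 2.66 and 4.34 CPM (1.85 ± 0.28, edgeR adjusted p = 0.00231).

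Cdk1, the mitotic kinase that partners the B-type cyclins, ranged from 0.832 to 2.65 CPM in controls (median 1.55) and measured 5.29, 5.80, 4.16 and 9.63 CPM in Mfn DKO livers. Its groups did not overlap (log2 fold change 1.99 ± 0.33, SE, edgeR adjusted p = 0.00381). The cyclins Ccna2 and Ccnb1, the kinases Plk1, Aurkb, Bub1 and Bub1b, the spindle factor Tpx2, the kinetochore motor Cenpe, the ubiquitin-conjugating enzyme Ube2c and the transcription factor Foxm1 rose by log2 fold changes from 1.78 (Bub1b) to 2.82 (Bub1). The kinesins Kif11, Kif20a and Kif23, the spindle protein Nusap1 and the survivin gene Birc5 rose less, between 0.97 (Birc5) and 1.54 (Nusap1), and Cdc25c rose by 2.55 from the few counts given above. The mitotic members not called were the spindle-pole kinase Aurka, at 2.26–5.10 CPM in controls and 2.78–6.32 CPM in Mfn DKO livers (0.14, edgeR adjusted p = 0.800), and the centromeric histone Cenpa, at 4.70–8.42 and 7.14–10.8 CPM (0.46, edgeR adjusted p = 0.131). Per transcript length these were the most abundant mitotic members of control livers, at 3.01 ± 1.04 TPM for Aurka and 2.33 ± 0.607 TPM for Cenpa (SD, n = 6).

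Of the G1/S and replication members, Rrm1, the large subunit of ribonucleotide reductase, had the smallest adjusted p. It measured 11.3, 12.7, 18.1, 14.01, 10.8 and 11.6 CPM in control livers and 24.01, 23.6, 24.1 and 23.8 CPM in Mfn DKO livers. The Mfn DKO values were close together and above all controls (log2 fold change 0.87 ± 0.13, SE, edgeR adjusted p = 0.00236). Mcm2, a helicase subunit, measured 2.99, 3.04, 7.41, 5.999, 3.25 and 2.91 CPM in controls and 11.2, 15.7, 10.5 and 14.8 CPM in Mfn DKO livers. The groups did not overlap, and controls 3 and 4 were the highest controls (1.61 ± 0.27, edgeR adjusted p = 0.00406).

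Pole, the catalytic subunit of the leading-strand polymerase, went from 1.14–2.94 CPM (median 1.48) to 4.55, 4.58, 4.26 and 6.39 CPM (log2 fold change 1.54 ± 0.26, SE, edgeR adjusted p = 0.00417). The helicase subunit Mcm3 went from 4.52–8.81 CPM (median 5.48) to 11.2, 12.9, 10.7 and 16.6 CPM (1.05 ± 0.21, edgeR adjusted p = 0.00996). Mcm6 went from 4.27–15.4 CPM (median 5.52) to 23.0, 25.3, 20.3 and 34.5 CPM (1.70 ± 0.39, edgeR adjusted p = 0.0179). In these 3 genes, as in Mcm5, no Mfn DKO library fell within the control range. Mcm5 went from 2.15–8.81 CPM (median 2.999) to 12.5, 14.2, 12.6 and 25.3 CPM (1.81 ± 0.42, edgeR adjusted p = 0.0195). Pcna rose by a small but called amount, from 29.0–36.6 CPM (median 31.8) to 38.8, 42.0, 42.1 and 49.2 CPM (0.42 ± 0.10, edgeR adjusted p = 0.0225). The loading factors Cdc6 (2.27) and Cdt1 (1.27), the transcription factor E2f1 (0.88) and the primase-associated polymerase Pola1 (0.53) were also called higher.

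The remaining 13 G1/S and replication members were not called. Ccnd1 measured 9.95, 14.3, 100.3, 82.5, 60.9 and 10.8 CPM in controls and 48.6, 98.9, 58.4 and 59.3 CPM in Mfn DKO livers. Controls alone spanned the whole Mfn DKO range, and the log2 fold change was 0.51 ± 0.61 (SE, edgeR adjusted p = 0.616). The low-Xist Mfn DKO livers (48.6 and 58.4 CPM) lay above the low-Xist controls (9.95, 14.3 and 10.8 CPM). High-Xist Mfn DKO livers had 98.9 and 59.3 CPM of Ccnd1, against 100.3, 82.5 and 60.9 CPM in high-Xist controls. Whether the Ccnd1 effect differed by Xist level was not tested. Ccnd2 overlapped throughout, at 12.4–18.3 CPM in controls (median 14.5) and 15.99, 16.02, 12.91 and 17.93 CPM in Mfn DKO livers (0.09 ± 0.27, edgeR adjusted p = 0.849). Rrm2, the small ribonucleotide reductase subunit, and Ccne1, cyclin E1, had log2 fold changes of 1.08 and 1.28 with wide errors (0.34 and 0.60). The others were Ccne2 (0.67), E2f2 (0.90), E2f8 (0.45), Mybl2 (0.72), Mcm4 (0.88), Mcm7 (0.64), Gins1 (0.25), Tyms (0.24) and Tk1.

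Tk1 was the member whose Mfn DKO libraries all lay below the controls in TMM-scaled CPM. It measured 74.9, 52.0, 46.6, 76.1, 66.8 and 58.7 CPM in controls and 42.9, 43.7, 39.6 and 40.7 CPM in Mfn DKO livers. By library totals alone the groups of Tk1 overlapped, with 42.1 CPM in control 3 and 41.1–45.3 CPM in Mfn DKO livers, and no member lay wholly below the controls. The difference did not pass the test (log2 fold change -0.58 ± 0.43, SE, edgeR adjusted p = 0.402). Its reads cannot be told apart from those of Afmid, the gene on its opposite strand, which lay at 26.0–58.4 CPM in controls and 24.6–33.2 CPM in Mfn DKO livers.

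**Figure D2:**
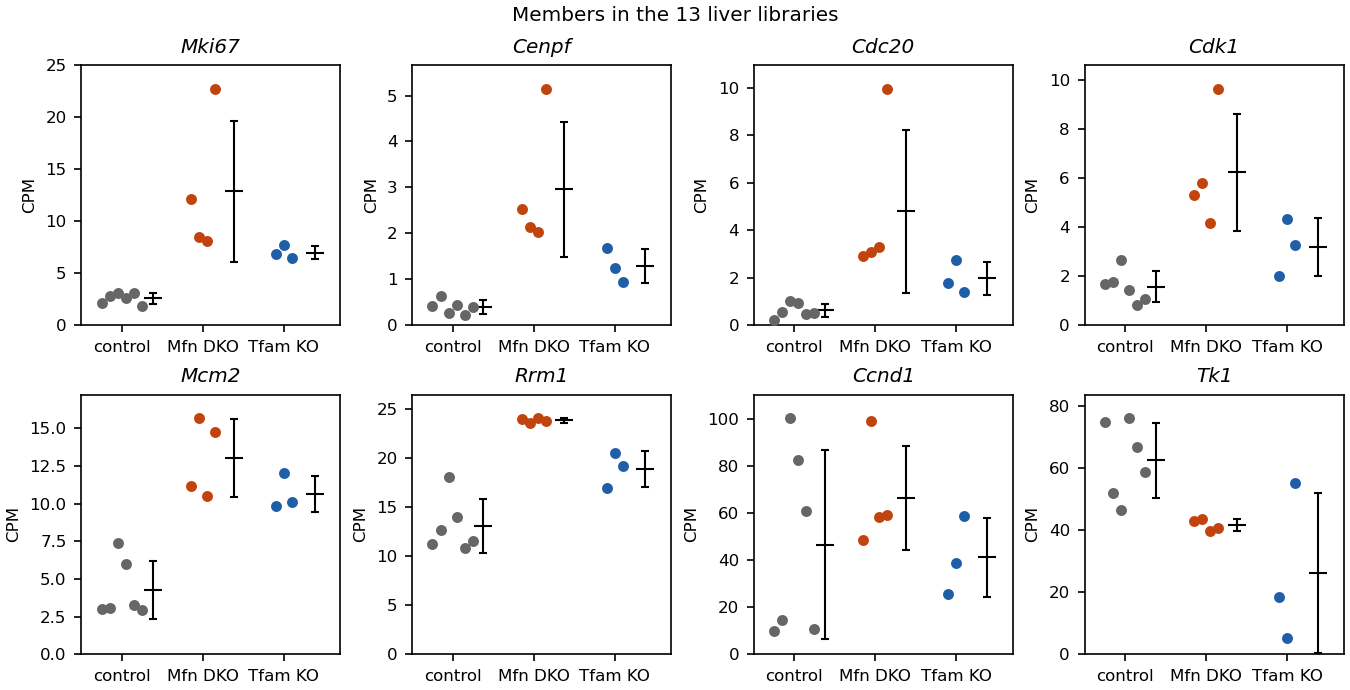
CPM of 4 mitotic (top) and 4 G1/S and replication members (bottom) in each of the 13 liver libraries, with mean and SD at the right of each group. Mfn DKO libraries lie above all controls for Mki67, Cenpf, Cdc20, Cdk1, Mcm2 and Rrm1, overlap them for Ccnd1 and lie below them for Tk1, which overlaps when library totals alone scale the counts.

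Summed over the class, mitotic members came to 22.5–41.2 CPM in controls (31.3 ± 7.46, SD, n = 6) and 82.0, 74.5, 72.1 and 170 CPM in Mfn DKO livers 1 to 4. The G1/S and replication sum averaged 259 ± 64.2 CPM (SD) over the 6 controls and 370 ± 47.4 CPM (SD) over the 4 Mfn DKO livers, and their ranges (197–345 and 329–422 CPM) overlapped. Mfn DKO liver 4 had the highest value of all 13 livers for 25 of 25 mitotic and 13 of 24 G1/S and replication members. Without it, 14 mitotic members (median log2 fold change 1.66) and 4 G1/S and replication members were called higher. Leaving out control 1, Mfn DKO 2 or Mfn DKO 3 left 7 G1/S and replication members called. Leaving out a library may change the calls of all genes, whose share in these fits is not given here. Within the high-Xist livers the median mitotic log2 difference was 2.04, and within the low-Xist livers it was 1.70. For the G1/S and replication class it was 0.83 and 0.76. Its sums did not overlap within either Xist level. They were 258.6–345.1 CPM in high-Xist controls and 397.6–422.2 CPM in high-Xist Mfn DKO livers. In low-Xist livers they were 196.8–215.2 and 329.4–330.1 CPM.

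**Figure D3:**
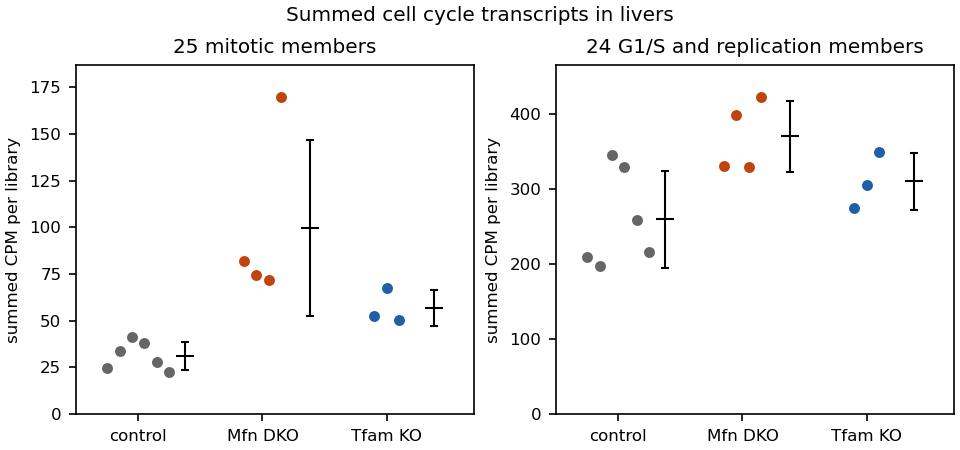
Summed CPM of the 25 mitotic members (left) and the 24 G1/S and replication members (right) in each liver library, with mean and SD beside each group. The mitotic sums of the 4 Mfn DKO livers (72.1 to 170 CPM) and the 3 Tfam KO livers (50.5 to 67.8 CPM) all exceed the highest control (41.2 CPM). The G1/S and replication sums overlap when livers of both Xist levels are pooled. Within each Xist level the Mfn DKO sums lie above the controls, whereas those of the high-Xist Tfam KO livers overlap them.

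Some G1/S and replication members also separated control livers by Xist. In the 3 controls of high Xist, 8 of 24 such members lay above all 3 controls of low Xist (33.3%): Ccnd1, Ccnd2, Mcm2, Mcm3, Mcm4, Cdt1, Pola1 and Pole. The share was 15.8% over all genes tested and 4.0% over the mitotic members, where Aurka was the 1 of 25. Ccnd1, for example, lay between 60.9 and 100.3 CPM in the high-Xist controls and between 9.95 and 14.3 CPM in the low-Xist controls. Marker sums split the same controls: high-Xist controls had 755–907 CPM of macrophage markers, 44.9–52.4 CPM of B cell markers, 6.14–8.55 CPM of neutrophil markers and 277–304 CPM of fibroblast markers. In low-Xist controls these sums were 475–541, 22.7–26.0, 1.60–2.49 and 224–242 CPM, and their part in the member values was not tested.

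The further cell cycle genes moved with the members. In Mfn DKO livers 5.23% of all genes were called higher. Of 56 other mitotic genes, 42 were called higher and 1 lower in these livers. Those with the smallest adjusted p were Aspm, a spindle-pole protein (1.96), Pttg1, securin (-0.87), Ckap2l, a spindle protein (2.99), and Ect2, the exchange factor of cytokinesis (2.13). Pttg1 was the lower gene. Of 48 other replication genes, 13 were higher and none lower, led by Uhrf1, which maintains DNA methylation at the fork (2.52), Clspn, a checkpoint mediator (2.46), Dscc1, a clamp-loader subunit (3.20), and Chaf1a, a histone chaperone of replication (1.71).

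Of 21 inhibitors, pocket proteins and their partners, 2 were higher and 1 lower, where 5.23% of all genes were called higher. Counts this small do not set the list apart from all genes. Cdkn1a, the CDK inhibitor induced by stress, measured 29.8, 19, 21.5 and 74.4 CPM in Mfn DKO livers and 1.42 to 9.10 CPM in controls. It rose beside the mitotic genes, with groups that did not overlap (log2 fold change 3.36 ± 0.63, SE, edgeR adjusted p = 0.00722). Pkmyt1, an inhibitory kinase of Cdk1, was the other higher gene (1.80), and the pocket protein Rbl2 fell by 0.61 on the log2 scale (edgeR adjusted p = 0.0335, or 0.0659 with library totals alone). The inhibitors Cdkn1b (0.09), Cdkn1c (0.27), Cdkn2a (0.48) and Cdkn2c (0.75) were not called.

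Markers of other liver cells were measured beside these results, since fewer cells of a type and less RNA per cell cannot be told apart in bulk tissue. Hepatocyte markers summed to 92720–137300 CPM in controls and 75580–93980 CPM in Mfn DKO livers, and 0 of 8 were called by edgeR. Macrophage markers summed to 475–907 CPM and 601–1220 CPM, with 0 of 9 called, all 9 higher on average (median log2 fold change 0.43) and the highest sum in Mfn DKO liver 4. Of 8 fibroblast and stellate markers 2 were higher, the collagens Col1a1 (1.27) and Col1a2 (0.67), with sums of 224–304 and 304–361 CPM. Sums of B cell markers (22.7–52.4 and 34.4–67.0 CPM), duct markers (32.8–69.4 and 55.1–104 CPM) and erythroid markers (162–474 and 170–636 CPM) overlapped, with 0 of 6 called in each list. No marker of these 6 lists was at 0 in every library of a group. Mfn DKO liver 4 also had the highest sums of all livers for erythroid (636 CPM), fibroblast (361 CPM) and endothelial markers (251 CPM). It had the highest duct sum of its group (104 CPM), whereas Mfn DKO liver 2 led its group for B cell (67.0 CPM) and hepatocyte markers (93980 CPM). The part of these cells in the cell cycle result was not tested.

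The second liver comparison set Tfam KO livers against the same 6 controls. Mitotic transcripts were higher here too: 15 of 25 passed the edgeR test, none was lower, and the median log2 fold change was 1.44. The background was larger than in the Mfn DKO livers, at 18.1% of all genes called higher. Of the G1/S and replication members 7 of 24 were higher and none lower (median 0.56). TMM factors reached 1.04–1.43 in Tfam KO livers, and with library totals alone the median of all genes moved from 0.03 to 0.46 and genes called higher from 3073 of 4992 calls to 7250 of 8154. On that scale 21 mitotic (median 1.88) and 17 G1/S and replication members (median 0.98) were called higher. All 3 Tfam KO livers exceeded all controls for 14 mitotic members and for 2 G1/S and replication members (Mcm2 and Mcm7), against 10.7% of all genes. As this comparison shares its controls with that of the Mfn DKO livers, the values are given side by side and no overlap is drawn from them.

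Mki67 measured 6.78, 7.69 and 6.42 CPM in Tfam KO livers 1 to 3, above all 6 control values (log2 fold change 1.44 ± 0.29, SE, edgeR adjusted p = 0.00394). Cenpf measured 1.67, 1.23 and 0.939 CPM (1.71 ± 0.37, edgeR adjusted p = 0.00566) and Prc1 1.77, 2.32 and 1.72 CPM (1.49 ± 0.32, edgeR adjusted p = 0.00604). For both, all Tfam KO livers were above all controls. Tpx2, which activates Aurora A on the spindle, went from 0.274–1.16 CPM in controls to 2.72, 2.96 and 1.68 CPM (1.73 ± 0.40, edgeR adjusted p = 0.00801). The checkpoint kinase Bub1b went from 0.502–1.12 CPM to 1.62, 3.88 and 1.92 CPM (1.44 ± 0.34, edgeR adjusted p = 0.00825), and Top2a measured 5.31, 6.16 and 6.19 CPM (1.45 ± 0.36, edgeR adjusted p = 0.0114). Tfam KO liver 2 was the highest of the 3 for Tpx2 and Bub1b.

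Cdk1 measured 1.98, 4.32 and 3.24 CPM in Tfam KO livers, of which liver 1 lay inside the control range (log2 fold change 1.02 ± 0.36, SE, edgeR adjusted p = 0.0467). Ccna2, Ccnb1, Ccnb2, Cdc20, Plk1, Aurkb, Cenpe and Foxm1 were the other mitotic members called. Their log2 fold changes ran from 0.93 (Ccnb2) to 1.84 (Foxm1). The 10 not called were Cdc25c (1.74), Bub1 (1.83), Ube2c (0.98), Kif20a (0.82), Kif11 (0.60), Nusap1 (0.49), Kif23 (0.42), Birc5 (-0.03), Cenpa (-0.05) and Aurka (-0.51).

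The helicase subunit Mcm7 measured 24.7, 54.2 and 21.9 CPM in Tfam KO livers against 11.4–17.1 CPM in controls (log2 fold change 1.25 ± 0.25, SE, edgeR adjusted p = 0.00417). Its groups did not overlap, and liver 2 was the highest. Cops6, on its opposite strand, lay at 113–148 CPM in controls and 115–126 CPM in Tfam KO livers. Exons of Ap4m1, Mir25 and Mir93 overlap those of Mcm7 as well, and their values are not given here. Mcm2 measured 9.81, 12.0 and 10.1 CPM, again above all controls (1.32 ± 0.29, edgeR adjusted p = 0.00635), and Rrm1 16.9, 20.6 and 19.2 CPM, of which liver 1 was below the highest control (0.53 ± 0.15, edgeR adjusted p = 0.0173).

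E2f8, an atypical E2F repressor, measured 35.4, 3.42 and 9.93 CPM in Tfam KO livers and 2.90–8.15 CPM in controls (log2 fold change 1.75 ± 0.53, SE, edgeR adjusted p = 0.0261). Only livers 1 and 3 exceeded the controls, and without liver 1 the log2 fold change was 0.47 (edgeR adjusted p = 0.481). Ccnd2 measured 15.5, 48.2 and 17.8 CPM against 12.4–18.3 CPM (0.88 ± 0.28, edgeR adjusted p = 0.0333). Liver 2 alone lay above the controls, and the log2 fold change was 0.18 without it (edgeR adjusted p = 0.506). Mybl2, the B-Myb factor, measured 0.901, 1.51 and 0.626 CPM against 0.378–0.760 CPM (0.98 ± 0.32, edgeR adjusted p = 0.0358), and Cdc6 rose by 1.62 on the log2 scale (edgeR adjusted p = 0.0483). Pcna, at 41.5, 35.6 and 42.4 CPM, did not pass (0.31 ± 0.11, edgeR adjusted p = 0.0504).

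Ccnd1 measured 25.7, 38.8 and 58.8 CPM in Tfam KO livers, all inside the control range (log2 fold change -0.18 ± 0.68, SE, edgeR adjusted p = 0.869). By Xist level, liver 1 (low Xist) lay above the low-Xist controls, and livers 2 and 3 (high Xist) lay below the high-Xist controls. Tk1 was low in livers 1 and 2 but not in liver 3, at 18.5, 5.10 and 55.0 CPM (-1.26 ± 0.49, edgeR adjusted p = 0.0708). Its opposite-strand neighbour Afmid followed the same order, at 15.6, 3.73 and 34.7 CPM. The other members not called were Ccne1 (1.33), Mcm6 (0.95), Cdt1 (0.91), Mcm5 (0.88), Pole (0.78), Mcm3 (0.59), Mcm4 (0.45), Pola1 (0.43), Rrm2 (0.29), Ccne2 (0.20), Tyms (0.15), E2f2 (0.08), E2f1 (0.07) and Gins1 (-0.01).

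Tfam KO liver 2 stood apart in other genes. Afp, the fetal hepatocyte protein, measured 10780 CPM there and 1.07–2.81 CPM in controls. The hepatocyte marker sum was 57120, 21990 and 92570 CPM in Tfam KO livers 1 to 3, and 5 of 8 hepatocyte markers were lower in Tfam KO livers. Macrophage markers summed to 334–835 CPM in Tfam KO livers, with 1 of 9 higher, Cd14 (2.40). Of the macrophage markers not called, Cd68 stood at 0.13 and the others between -0.45 and -0.23. The T cell gene Cd4 was lower (-2.42, edgeR adjusted p = 0.0499), and no other marker of its list was called. Of 8 fibroblast and stellate markers 1 was higher, Col1a1 (1.46, edgeR adjusted p = 0.00253), with sums of 222–293 CPM. Duct markers (27.3–128 CPM) and neutrophil markers (2.20–22.5 CPM) had no call, and liver 2 had the highest sum of each. The part of other cells in these values was not tested. Without liver 2, 5 mitotic members (median 1.07) and 4 G1/S and replication members (median 0.51) were called. The G1/S and replication count was 3 without control 1 or control 2, 4 without control 6 or Tfam KO 1, and 11 without control 3. As above, the share of all genes called in these fits is not given. Within the high-Xist livers the median log2 difference was 1.06 for mitotic and 0.39 for G1/S and replication members, and in the low-Xist livers, with a single Tfam KO library, 1.28 and 0.69.

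Of the further lists, 31 of 56 other mitotic genes were higher in Tfam KO livers and none lower, against the 18.1% of all genes called higher, with the smallest adjusted p for Kifc1 (2.15), Mad2l1 (1.04), Incenp (1.09) and Kif20b (2.0). These encode a minus-end kinesin, a checkpoint protein, a chromosomal passenger subunit and a cytokinesis kinesin. Of 48 other replication genes 16 were higher and 2 lower. The smallest adjusted p belonged to E2f3 (0.97), Chaf1a (1.61), Dscc1 (2.85) and Pold3 (0.60), and the kinase Cdk2 was among the lower genes (-0.40, but 0.03 and not called with library totals alone).

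Among 21 inhibitors and pocket proteins 4 were higher and 2 lower in Tfam KO livers, where 18.1% of all genes were called higher. Cdkn1a measured 74.3, 175 and 22.7 CPM, above all controls (log2 fold change 4.69 ± 0.68, SE, edgeR adjusted p = 0.000972). The retinoblastoma gene Rb1 (0.79) and the antiproliferative gene Btg2 (1.5) rose, and Rbl2 fell by 0.94 on the log2 scale.

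A direct comparison of Tfam KO with Mfn DKO livers gave no called member: 0 of 25 mitotic and 0 of 24 G1/S and replication members passed the edgeR test, against 0.294% of all genes called in either direction. At an unadjusted p under 0.05 there were 10 mitotic and 5 G1/S and replication members, and the DESeq2 Wald test called 1 mitotic member. All 25 mitotic log2 fold changes were below 0 (median -0.82), as were 19 of the 24 others (median -0.39). Mki67, for example, differed by -0.88 ± 0.32 (SE, edgeR adjusted p = 0.157) and Cenpf by -1.20 ± 0.41 (SE, edgeR adjusted p = 0.136). Without Mfn DKO liver 4 the mitotic median was -0.39. With library totals alone the median of all genes moved from 0.01 to 0.25, called genes from 50 (18 higher) to 1226 (1140 higher), and the member medians to -0.53 and -0.155, with 0 members called.

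In islets, Tfam KO libraries were compared with control libraries with sex as a term. The members changed little as a class, in a comparison where 20.9% of all 19752 genes were called in either direction. 2 mitotic members were higher (median log2 fold change 0.14 over 25), and of 24 G1/S and replication members 1 was higher and 2 were lower (median -0.01). With library totals alone the median of all genes moved from -0.01 to 0.20, genes called higher from 2285 of 4119 calls to 6208 of 6825, and the G1/S and replication median to 0.20, with 4 higher and 1 lower. On the TMM scale cyclin D1 was called lower in Tfam KO islets of each sex. In TPM it was 70.1 ± 15.2 in female controls and 69.8 ± 8.51 in female Tfam KO islets (SD, n = 5 and 4). In males it was 98.8 ± 8.62 and 78.0 ± 12.3 TPM (SD, n = 3 and 2).

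Ccnd1 measured 151, 154, 187, 125 and 160 CPM in female and 223, 223 and 197 CPM in male controls, against 95.3, 120, 119 and 136 CPM in female and 123 and 144 CPM in male Tfam KO islets. The male groups did not overlap, whereas 1 female control was below the highest female Tfam KO library. The log2 fold change was -0.50 ± 0.10 (SE, edgeR adjusted p = 0.00147), with -0.40 in females (edgeR adjusted p = 0.0345) and -0.68 in males (edgeR adjusted p = 0.0136). Leaving out 1 library at a time, the female call was kept in 8 of 14 fits and the male call in 12 of 14. The sex difference of the effect was -0.28 (edgeR adjusted p = 0.916). With library totals alone Ccnd1 stayed called (-0.30, edgeR adjusted p = 0.0408), but not within females (-0.20, edgeR adjusted p = 0.298) or males (-0.48, edgeR adjusted p = 0.0792). Cyclin E2 (Ccne2), which activates Cdk2 at the start of S phase, had 7.17–9.64 CPM in controls (median 8.17) and 4.92–7.50 CPM in Tfam KO islets (median 6.57). The groups overlapped slightly (-0.37 ± 0.10, edgeR adjusted p = 0.0174), and the call was lost with library totals alone (-0.16, edgeR adjusted p = 0.299). Ints8, on its opposite strand, differed by -0.41 ± 0.14 (SE, edgeR adjusted p = 0.0551).

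Mcm7 rose from 13.7–23.6 CPM (median 17.95) to 19.7–28.1 CPM (median 21.9), with overlapping groups (log2 fold change 0.33 ± 0.09, SE, edgeR adjusted p = 0.0163). The checkpoint kinase Bub1b went from 1.39–2.94 CPM (median 2.12) to 2.53–5.80 CPM (median 3.47), with the lowest Tfam KO library inside the control range (0.86 ± 0.21, edgeR adjusted p = 0.00717). Cenpe, the kinetochore motor, went from 0.776–2.28 CPM (median 1.52) to 1.63–4.34 CPM (median 2.26), again with overlap (0.81 ± 0.25, edgeR adjusted p = 0.0326). Cenpe lost its call without control female 5, control male 3, Tfam KO female 1 or Tfam KO male 2, with adjusted p up to 0.104. Ccnd1, Ccne2, Mcm7 and Bub1b were called in all 14 fits that left out 1 library. LTO1, on the opposite strand of Ccnd1, differed by -0.09 ± 0.07 (SE, edgeR adjusted p = 0.434).

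The proliferation markers overlapped between genotypes. Mki67 had 3.79–9.69 CPM in controls (median 7.06) and 12.7, 5.88, 5.62 and 4.93 CPM in female and 8.06 and 9.44 CPM in male Tfam KO islets. Only Tfam KO female 1 exceeded the controls (log2 fold change 0.19, edgeR adjusted p = 0.605). The mitotic sum followed suit, at 42.9–69.2 CPM in controls and 96.9, 43.4, 49.8, 44.8, 63.4 and 71.8 CPM in Tfam KO islets, and the median mitotic log2 fold change was -0.12 without that library. Cdk1 (-0.01), Pcna (0.16) and Mcm2 (-0.16) were not called. Ccnd2 had 1043–1833 CPM in controls and 1091–1364 CPM in Tfam KO islets (-0.22, edgeR adjusted p = 0.0671). By sex, all male controls lay above both male Tfam KO libraries in CPM, whereas the female groups overlapped. In TPM the males did not differ on average, at 392.5 ± 38.9 in controls and 393.2 ± 24.8 in Tfam KO islets (SD, n = 3 and 2). The members not called had log2 fold changes between -0.30 and 0.51.

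No member differed in its Tfam effect between the sexes: edgeR called 0 of 25 mitotic and 0 of 24 G1/S and replication members, with 0 members at an unadjusted p under 0.05, and 0 (0%) of all genes, of which 1230 had an unadjusted p under 0.05. The DESeq2 Wald test called 0 members.

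The inhibitor Cdkn1a went from 9.28–21.8 CPM in controls to 35.5–97.9 CPM in Tfam KO islets (log2 fold change 1.90 ± 0.23, SE, edgeR adjusted p = 1.62e-05). With 20.9% of all genes called in either direction, 4 of 21 inhibitors and pocket proteins were higher and 2 lower, including the CDK inhibitor Cdkn2b (0.71) and Btg2 (-0.61), and Cdkn2a rose by 0.73 (edgeR adjusted p = 0.0448). Racgap1, a partner of the central spindle, went from 12.97–19.37 to 30.9–41.2 CPM (1.1 ± 0.09, edgeR adjusted p = 2.99e-07). It was 1 of 5 higher among 56 other mitotic genes, with Gtse1 (1.12) and Kif18a (0.72), and 2 were lower, including the kinetochore gene Spc25 (-0.60).

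Of 48 other replication genes 4 were higher and 3 lower, a share below the 20.9% of all genes called in either direction. The higher genes included the clamp loader Rfc4 (0.87). The lower genes were the origin recognition gene Orc6 (-0.53), the single-strand binding gene Rpa1 (-0.32) and the polymerase subunit Pold2 (-0.32). With library totals alone Spc25 (edgeR adjusted p = 0.0566), Rpa1 (0.215) and Pold2 (0.278) lost their calls. All 8 beta cell markers were lower in Tfam KO islets, with sums of 187700–293900 CPM in controls of both sexes and 105100–140900 CPM in Tfam KO islets. Of the fibroblast markers 2 of 7 tested were higher, with sums of 29.3–68.7 CPM in controls and 45.3–86.5 CPM in Tfam KO islets. Of the macrophage markers 1 of 8 tested was higher, with sums of 117–209 and 130–203 CPM, and Clec4f was at 0 in every library. Their part in the values above was not tested.

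**Figure D4:**
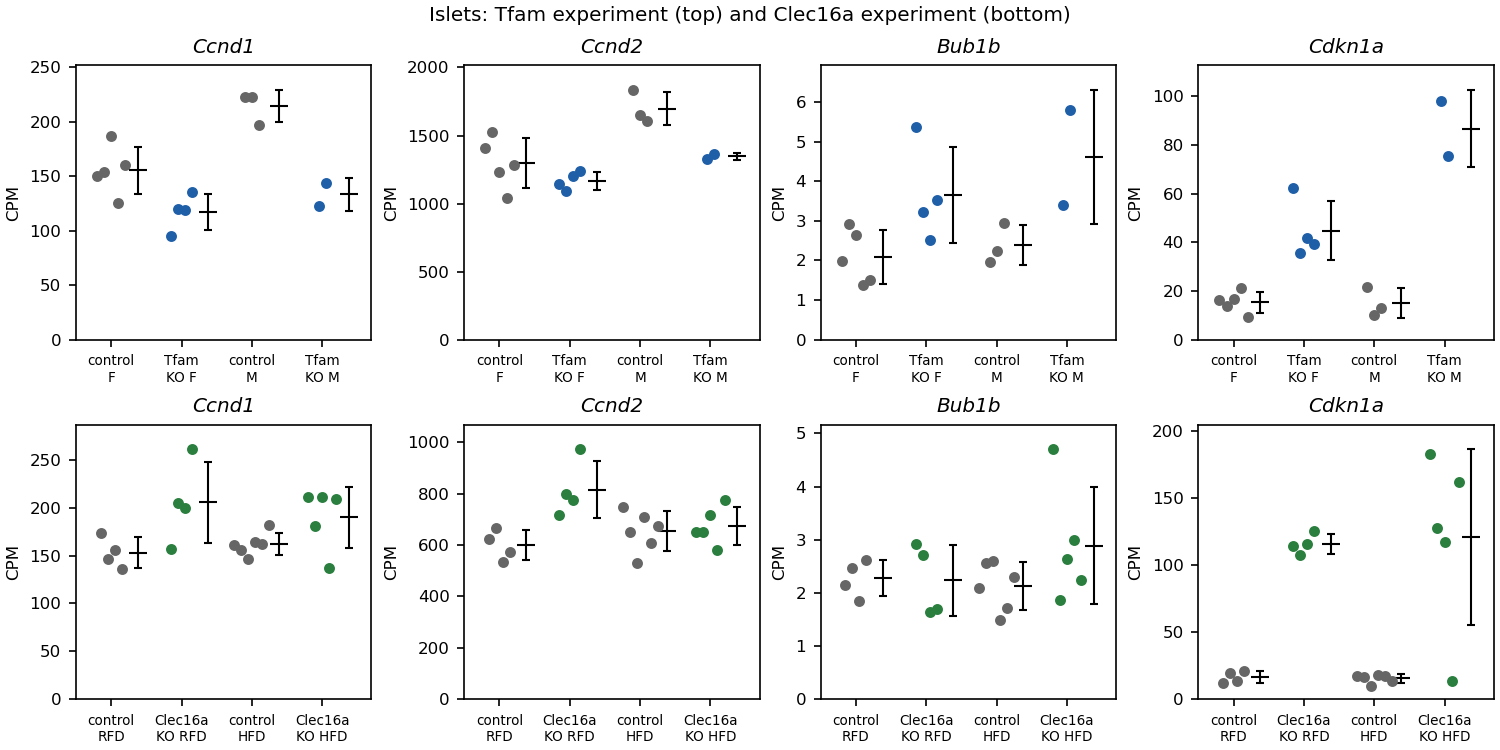
CPM of Ccnd1, Ccnd2, Bub1b and the inhibitor Cdkn1a in every library of the Tfam islets (top, by sex) and the Clec16a islets (bottom, by diet), with mean and SD beside each group. On this TMM scale Ccnd1 is lower on average in Tfam KO islets of each sex, with overlap in females. Ccnd2 is higher in the RFD islets labelled Clec16a KO (715 to 973 against 534 to 667 CPM). HFD Clec16a KO replicate 4 has the Cdkn1a level of the controls (13.2 CPM).

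In the islets labelled Clec16a KO, mitotic genes gave no call on either diet, and cyclin D2 was the only member called. On RFD 7.52% of all 17254 genes were called in either direction, and on HFD 9.57%. Of 25 mitotic members edgeR called 0 on RFD and 0 on HFD, with 0 and 0 at an unadjusted p under 0.05, and the DESeq2 Wald test called 0 on each diet. Their median log2 fold change was 0.23 on RFD, with 23 of 25 above 0, and 0.10 on HFD, with 20 of 25 above 0. Of 24 G1/S and replication members edgeR called 1 on RFD (4 at an unadjusted p under 0.05) and 0 on HFD (2 at an unadjusted p under 0.05, and 1 by the DESeq2 Wald test). With library totals alone the median of all genes on HFD moved from -0.002 to 0.12, genes called higher from 970 of 1652 calls to 1775 of 2127, and 2 G1/S and replication members were called.

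Ccnd2 on RFD measured 623, 667, 534 and 572 CPM in controls 1 to 4 and 715, 800, 776 and 973 CPM in libraries 1 to 4 labelled Clec16a KO. The groups did not overlap (log2 fold change 0.45 ± 0.12, SE, edgeR adjusted p = 0.0323). Across the alternatives its adjusted p ran from 0.00484 to 0.108, and 6 of the 19 fits that left out 1 library lost the call. By sequencing lane, as named in the file names, the means were 645 CPM (2 controls) and 821 CPM (3 labelled Clec16a KO) in lane 7, and 553 CPM (2 controls) and 800 CPM (1 labelled Clec16a KO) in lane 8. On HFD the groups overlapped, at 530–749 CPM in controls and 580–776 CPM in the islets labelled Clec16a KO (0.05, edgeR adjusted p = 0.846). The diet difference of the effect was -0.40 and did not pass (edgeR adjusted p = 0.9999).

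Ccnd1 on RFD measured 174, 147, 156 and 136 CPM in controls and 158, 206, 200 and 261 CPM in islets labelled Clec16a KO, which overlapped at 1 library (log2 fold change 0.43 ± 0.14, SE, edgeR adjusted p = 0.0729). On HFD its log2 fold change was 0.23 (edgeR adjusted p = 0.271). Mcm2 on HFD measured 26.8, 19.9, 23.7, 12.9 and 16.2 CPM in islets labelled Clec16a KO against 11.2–18.2 CPM in controls (0.50, edgeR adjusted p = 0.0566). Mki67 did not separate on either diet, with 1.73, 4.04, 4.01 and 3.30 CPM in RFD controls and 2.92, 2.51, 6.49 and 3.40 CPM in RFD islets labelled Clec16a KO (0.24, edgeR adjusted p = 0.845). On HFD the log2 fold change of Mki67 was 0.34 (edgeR adjusted p = 0.728). Cdk1 (0.15 and -0.10 on RFD and HFD) and Pcna (-0.14 and -0.09) were not called.

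HFD Clec16a KO replicate 4 had 13.2 CPM of Cdkn1a, inside the control range of 9.69–17.6 CPM, while the other 4 libraries of its group had 183, 128, 117 and 162 CPM. Its endothelial marker sum was 390 CPM, against 612–694 CPM in those 4. Without it, Mcm2 (0.63, edgeR adjusted p = 0.00464) and Ccnd1 (0.33, edgeR adjusted p = 0.0400) were called higher on HFD. The library was singled out after its control-like values were seen, and leaving out such a library can by itself widen the group difference. These calls are therefore no independent test of the difference on HFD. The share of all genes called in this fit is not given here. Cdkn1a was higher on both diets, from 11.9–20.9 to 107–125 CPM on RFD (2.81 ± 0.45, edgeR adjusted p = 0.00263) and by 2.97 ± 0.38 on HFD (edgeR adjusted p = 0.000259).

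Few other cell cycle genes were called. The cyclin D kinase Cdk4 fell by 0.31 on RFD (edgeR adjusted p = 0.0172) and by 0.27 on HFD (edgeR adjusted p = 0.0119, or 0.146 with library totals alone) on the log2 scale. The phosphatase Cdc25a, which activates Cdk2, rose by 0.49 and 0.42 on the log2 scale (edgeR adjusted p = 0.0452 and 0.0345). The repressor E2f6 rose on RFD (0.41, edgeR adjusted p = 0.0491, or 0.0534 with library totals alone) and the fork protein Timeless on HFD (0.42). Of 56 other mitotic genes edgeR called 0 on either diet, with 3 on RFD and 4 on HFD at an unadjusted p under 0.05, and the DESeq2 Wald test called 0. All 6 endothelial markers were higher on both diets, with sums of 358–394 CPM in RFD controls and 597–723 CPM in RFD islets labelled Clec16a KO, and of 337–444 and 390–694 CPM on HFD. Of 7 fibroblast markers tested, 2 were higher on RFD and 4 on HFD, with sums of 45.2–56.6 and 58.1–105 CPM on RFD. Of 8 beta cell markers 2 were lower on each diet, Slc2a2 (-1.47 on RFD, -1.26 on HFD) and Ucn3 (-0.84 and -1.05). The macrophage gene C1qa (-1.02 and -0.61) and the B cell gene Cd79a (-2.33 and -1.40) were also lower on RFD and HFD, each the 1 marker of its list called. B cell sums overlapped, at 15.6–352 CPM in controls and 21.8–286 CPM in islets labelled Clec16a KO on RFD. On HFD these sums were 26.25–400 and 27.5–1031 CPM. The library highest in B cell markers was also highest in the mitotic sum in each group except RFD Clec16a KO. The duct marker Spp1 was higher on both diets (2.55 and 1.77), and the T cell gene Trac was higher on HFD (1.81, edgeR adjusted p = 0.0282). Their part in the values above was not tested.

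No member was called between diets. With edgeR there were 0 called members for HFD against RFD in controls, where 0.0406% of all genes were called, 0 in the islets labelled Clec16a KO, where 0.0116% were called, and 0 for the diet difference of the Clec16a effect, where 0% were called. At an unadjusted p under 0.05 there were 0 mitotic members in each of the 3, and 1, 2 and 1 G1/S and replication members. The DESeq2 Wald test called 0, 0 and 0 members. Mitotic medians were -0.17 in controls, with 19 of 25 below 0, and -0.29 in islets labelled Clec16a KO, with 21 of 25 below 0. Mitotic sums covered 35.0–54.4 CPM in RFD controls and 19.4–61.0 CPM in HFD controls, so the HFD controls enclosed the RFD range.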

How the data were processed

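Paired-end RNA-seq libraries of 33 islet and 13 liver samples were analysed from 1 deposited table per library. Per the file headers, each gives a raw count, CPM and TPM for every gene: the authors' raw counts were used for tests, the deposited TPM for levels between genes, and the deposited CPM was checked only. The submitters' processing notes name STAR 2.6.1b, RSEM 1.3.1, featureCounts, DESeq2, FastQC, MultiQC and GRCm38; which made the counts, and counting by strand, are not given in the sources used here. CPM printed here are raw counts divided by library totals over the tested genes times edgeR's TMM factors, which ran from 0.834 to 1.43.

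Groups came from the labels, and sequencing lanes of the Clec16a islets from file names. Each experiment was fitted alone over all its groups with edgeR 4.0.16 (TMM scaling, filterByExpr on low counts, glmQLFit and glmQLFTest, R 4.3.3), with sex as a term for the Tfam islets, and Benjamini-Hochberg adjustment ran over every gene that passed the filter. Calls are genes whose adjusted p-value was at most 0.05. Differences within Xist levels used log2(CPM + 0.1). The scripts were tested on simulated data. The alternatives were DESeq2 1.42.0 (size factors and Wald test), no filter, at least 10 counts in every library, a replicate block, exocrine, lane or Xist covariates, only the compared groups, and leaving out each library. Those added after seeing the data were the values within Xist levels and library totals without TMM. Counting limits the precision: 3 counts correspond to 0.0340–0.182 CPM, and such limits cover counting error only.

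Values in every library, or group ranges, are given for up to 6 called members per class with the smallest adjusted p in each comparison. The same holds in livers for Mki67, Cdk1, Ccnd1, Ccnd2, Pcna and Mcm2. In islets some of these genes are given as log2 fold changes only, and Mcm2 on RFD is not given. Other lists give up to 4 genes. The members and lists were chosen with earlier results of these data known. Of 55487 gene IDs, 55227 were found in GENCODE M21 (GRCm38), used for exon overlaps. Promoters came from RefSeq (GRCm38.p6), and 33 of 37 members' entries ended in 20 bases found in a GENCODE transcript of the gene.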

Additional observations from a re-analysis of the deposited data

Results flagged for a closer look

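Within each group of 4 to 10 libraries, the highest and lowest library were compared with the rest by Dixon's criterion. Of 97 groups of values tested, 9 held a library that stood apart, and chance gives about 1 in 20 groups. Mfn DKO liver 4 was the library in 6 of them, with a mitotic sum of 169.9 CPM and with 9.96 CPM of Cdc20, 5.15 CPM of Cenpf, 25.3 CPM of Mcm5, 6.39 CPM of Pole and 19.1 CPM of Top2a, each the highest of the 4 Mfn DKO livers. Tfam KO female islet library 1 had the highest mitotic sum of its group, 96.9 CPM, and the highest Mki67, 12.7 CPM. Control liver 1 had the lowest Bub1b of the 6 controls, 0.502 CPM.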

How the results depend on the processing

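With library totals alone, an alternative added after seeing the data, 17 G1/S and replication members were called in Tfam KO livers (median 0.978), 5 in Tfam KO islets and 2 on HFD, and Clec16a, not a member, turned to 0.427 in Tfam KO livers. The replication gene Cdk2 went from -0.40 to 0.03 there. No other result tabulated changed direction past the threshold under any alternative run. Of the values of single genes under the remaining alternatives, 4900 kept their side of the threshold, 244 lost a call and 26 gained one. The median correlation of same-numbered deviations was 0.0653 for Tfam islets, -0.0163 for Clec16a islets and 0.0873 for livers. For other pairs it was -0.0111, -0.0123 and -0.045. The 10 same-numbered liver pairs ran from -0.343 to 0.350, so these values do not settle whether replicate numbers pair the libraries. The replicate block is given only here. With the replicate block, called members were 7 mitotic and 2 G1/S and replication in Mfn DKO livers, 1 and 0 in Tfam KO livers, and 0 G1/S and replication on RFD in the islets labelled Clec16a KO. With each library left out in turn there were 14 to 23 mitotic (median log2 fold change 1.66 to 2.27) and 4 to 14 G1/S and replication members in Mfn DKO livers. In Tfam KO livers it gave 5 to 15 and 3 to 11, between the 2 knockouts 0 to 4 G1/S and replication members, in Tfam KO islets 1 to 2 mitotic members, and on RFD and on HFD 0 to 2 G1/S and replication members each. The medians of the sex difference ran from -0.24 to 0.36 (mitotic) and from -0.21 to 0.27 (G1/S and replication). The DESeq2 Wald test called 12 G1/S and replication members in Tfam KO livers, 2 on RFD and 1 on HFD, and 1 mitotic member between the knockouts. Fitting only the compared groups called 2 G1/S and replication members in Tfam KO livers. On RFD the G1/S and replication count was 0 with no filter and 2 with the exocrine covariate, and on HFD it was 1 with at least 10 counts and 1 with the lane covariate. The cause of these shifts was not tested. Shares of all genes called under these alternatives are not given here, so the counts do not separate the members from a general change in calls. Depth limits the mitotic class in livers, where 7 of 25 members had under 10 counts in at least 1 library.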
